A study of Mus musculus with 8 samples.

Results

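Type I interferon-stimulated genes are described here through 10 members, Ifit1, Ifit3, Ifit3b, Isg15, Rsad2, Usp18, Oasl2, Mx1, Cmpk2 and Rtp4, taken by gene symbol from the 55367 symbols in the deposited mouse single-cell RNA count tables. All 10 were found in all 4 libraries. The meningeal libraries held cells sorted as CD45+ CD3+ CD4+, 1 library from a Foxp3-GFP genotype (replicate 1) and 1 from B6.WT (replicate 2), with no treatment named in the labels. The hippocampal libraries held cells sorted as CD45- Thy1- from Foxp3-DTR- mice (DTRneg) and Foxp3-DTR+ mice (DTRpos), with 2 mice pooled in each. Both hippocampal groups received Diphtheria toxin, which kills cells that carry the toxin receptor (DTR), driven here by Foxp3, the gene that defines regulatory T cells. Ages were not given in the sources used here. The sorted hippocampal cells exclude the CD45+ cells in which Foxp3 is active.

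Type I interferons bind the receptor made of Ifnar1 and Ifnar2, which signals through the kinases Jak1 and Tyk2. These activate transcription factors, among them Stat2 and Irf9, that bind interferon-stimulated response elements in the promoters of target genes. The members act downstream of that step, mostly in antiviral defence. Ifit1 binds viral RNA, Ifit3 partners it, Isg15 is a ubiquitin-like protein, and Usp18 removes Isg15 from proteins and restrains the receptor. Rsad2 (viperin) makes a modified nucleotide, and Cmpk2 acts in the supply of nucleotides. Mx1 is a GTPase of the dynamin family, Oasl2 belongs to the oligoadenylate synthetase family, and Rtp4 is an interferon-induced transporter protein.

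The promoters of the members are shown because they carry the short repeats through which the pathway is known to act. The pattern GAAANNGAA was searched on both strands (so its reverse complement is marked too) in the 250 bases before each start in RefSeq promoters of build GRCm38.p6, and overlapping matches were counted. It was present in 5 of the 7 members that the table holds and in 7.13% of all 32851 promoters of that length. Capitals below mark the matches and each stretch is written 5′ to 3′ along the gene's own strand.

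Ifit1, chr19:34640750-34640843, plus strand: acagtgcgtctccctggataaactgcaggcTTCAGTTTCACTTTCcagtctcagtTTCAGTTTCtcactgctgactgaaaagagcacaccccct
Ifit3, chr19:34583344-34583465, plus strand: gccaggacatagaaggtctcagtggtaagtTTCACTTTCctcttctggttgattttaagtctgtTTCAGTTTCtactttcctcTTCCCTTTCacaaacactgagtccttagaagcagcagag
Isg15, chr4:156200846-156200926, minus strand: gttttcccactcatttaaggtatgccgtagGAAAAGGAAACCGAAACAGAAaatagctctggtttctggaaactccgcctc
Rsad2, chr12:26456533-26456601, minus strand: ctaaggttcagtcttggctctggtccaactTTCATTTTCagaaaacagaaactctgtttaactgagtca

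Ifit1, Ifit3 and Isg15 each held 3 matches and Rsad2 held 1. The same stretch as in Ifit3, letter for letter, lies before Ifit3b at chr19:34607740-34607861. Ifit3 and Ifit3b are near copies, with 98.0% identity over 1697 aligned transcript bases, so reads may have been split or lost between them and their separate levels are uncertain. Ifit3 and Ifit1 were 68.5% identical. Oasl2 and Cmpk2 held no match in this window. Rsad2 and Cmpk2 lie head to head on chromosome 12 with starts 12752 bases apart. A match is a description of the letters only.

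After filtering, 1798 and 4109 meningeal CD4 T cells were used in replicates 1 and 2, with median depths of 3137 and 1775 UMIs (counted RNA molecules) per cell. The hippocampus gave 6863 DTRneg and 5691 DTRpos cells, with medians of 6003 and 4509 UMIs. Replicate 1 was the deeper meningeal library, and the 2 replicates also differ in genotype and in the Cell Ranger version of the file headers, so depth, genotype and library cannot be told apart. In the meninges, 7 cell barcodes were shared between the replicates, and 15 between the hippocampal libraries. The hippocampal label names neurons and glia, but no class of mature neurons was found by its markers. Mature oligodendrocytes made up 55.0% of DTRneg and 46.7% of DTRpos cells. The endothelial class carried Cldn5, a tight-junction gene of vessels, at 4875 and 5855 CPM (a gene's UMIs scaled to the same total of UMIs in every sum) in DTRneg and DTRpos, against 5.71 and 3.56 CPM in other cells.

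Cells with UMIs of 3 or more members, called high cells below, were common among meningeal T cells and hippocampal endothelial cells. They were rare in mature oligodendrocytes, astrocytes and oligodendrocyte precursors. High cells made up 15.5% of T cells in replicate 1 (278 of 1798, exact binomial interval at 95% confidence 13.8 to 17.2%) and 6.69% in replicate 2 (275 of 4109, 5.95 to 7.5%). In the hippocampus they made up 2.20% of DTRneg cells (151 of 6863) and 2.09% of DTRpos cells (119 of 5691). These intervals, like all others below, cover counting error only and not the spread between animals. Cells just under the threshold, with exactly 2 members, numbered 165, 256, 119 and 114 in replicate 1, replicate 2, DTRneg and DTRpos. Cells just inside it, with exactly 3, numbered 76, 126, 72 and 53. With every T cell thinned to 1000 UMIs, the shares were 6.67% and 3.16%, so the replicates still differed in the same direction.

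**Figure D1:**
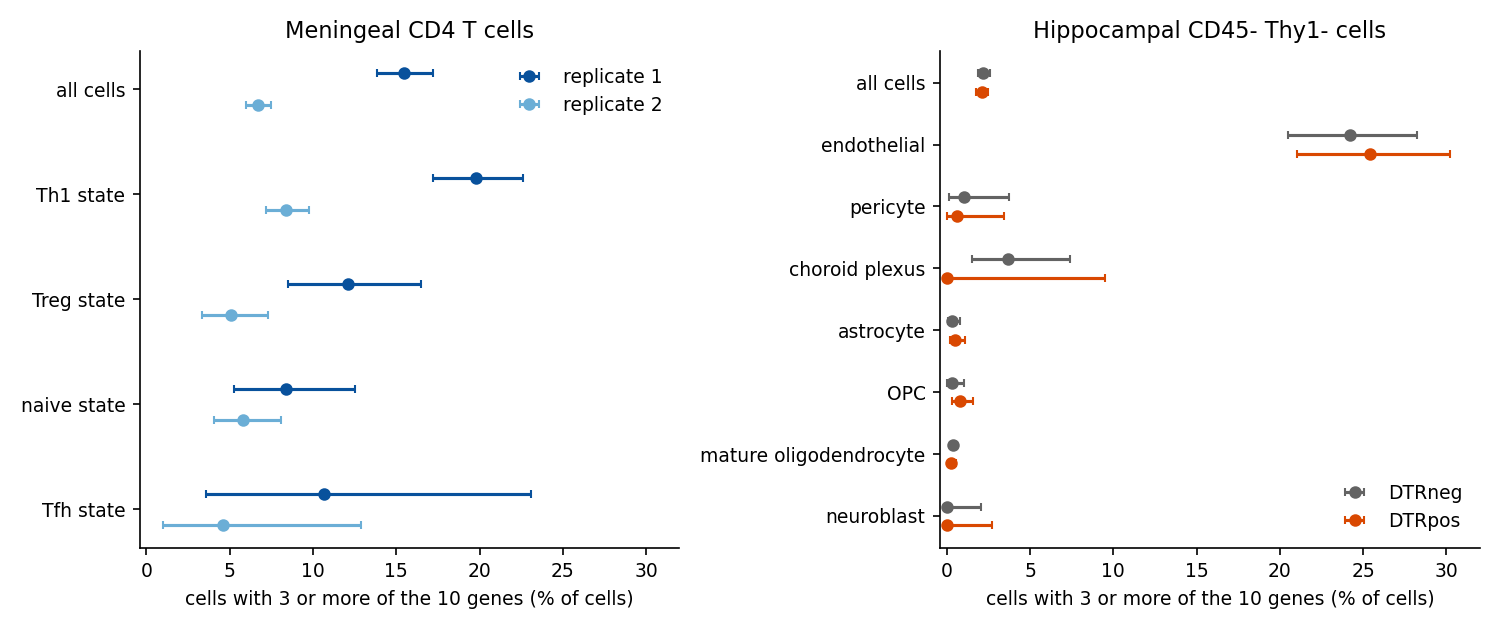
Share of cells with UMIs of 3 or more of the 10 genes (horizontal axis, percent) by T-cell state in the 2 meningeal replicates (left) and by hippocampal class in DTRneg and DTRpos (right); bars are exact binomial intervals at 95% confidence. The endothelial class sits near 25% in both hippocampal libraries, with astrocytes, OPCs and mature oligodendrocytes under 1%, and the Th1 state has the highest share of the 3 large T-cell states in both replicates.

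Among T-cell states set by the number of markers detected, the Th1 state had the largest share of high cells of the 3 largest states in each replicate. In replicate 1 it held 174 high cells of 879 (19.8%), against 34 of 281 (12.1%) for the Treg state and 21 of 250 (8.40%) for the naive state. In replicate 2 the shares were 158 of 1883 (8.39%), 27 of 534 (5.06%) and 33 of 567 (5.82%). The order of Treg and naive states was thus not the same in the 2 replicates, and their intervals overlapped in each. At 1000 UMIs per cell the shares were 9.45%, 4.07% and 2.04% for Th1, Treg and naive in replicate 1 and 4.15%, 2.27% and 2.24% in replicate 2. The Tfh state held 5 of 47 and 3 of 65 high cells, the cycling cells 1 of 12 and 2 of 31, and the NK receptor state 2 of 6 and 0 of 36. The Th17 state held 2 cells and 1 cell, none of them high. These classes are too small for an order. In the NK receptor state of replicate 2 the exact binomial interval for a count of 0 reaches 9.74%. Cells given no state were at 12.8% and 5.24%.

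The share of high cells also moved with how clearly a cell was assigned to its sample. In replicate 2 high cells made up 9.95% of its cells whose own hashtag (the antibody barcode that marks the sample) was 2 to under 5 times the next one, 6.25% at 5 to under 20 times, and 5.57% at 20 times or more. In replicate 1 the same shares were 19.7%, 22.7% and 14.2%. Median depth moved with these bins, from 2497 to 1616 UMIs in replicate 2 and from 5343 to 2918.5 in replicate 1, and the part of either in the shares was not tested.

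In the hippocampus the endothelial class held most of the high cells. High cells made up 24.2% of endothelial cells in DTRneg (120 of 496, 20.5 to 28.2%) and 25.4% in DTRpos (92 of 362, 21.0 to 30.2%). The intervals overlapped, but with 1 library per group they do not test a difference between the groups. Endothelial cells were shallow, with medians of 1944.5 and 1605 UMIs, against 7609 and 6291 in mature oligodendrocytes. At 2000 UMIs per cell the endothelial shares were 25.5% and 27.4%, over the 239 of 496 and 124 of 362 cells deep enough. Mature oligodendrocytes had 13 high cells of 3777 and 7 of 2659, astrocytes 3 of 1069 and 6 of 1208, and OPCs (oligodendrocyte precursors) 2 of 699 and 7 of 899. Pericytes had 2 of 190 and 1 of 159, the choroid plexus class 7 of 191 and 0 of 37, and fibroblasts 0 of 12 and 2 of 13. Differentiating oligodendrocytes had 0 of 33 and 0 of 17, and the immune class 0 of 3 and 0 of 7. Neuroblasts had 0 of 176 and 0 of 134, with exact binomial intervals that reach 2.074% and 2.715%. In neuroblasts any member was seen in 3.41% and 5.97% of cells, and in mature oligodendrocytes in 2.01% and 2.33%, against 64.1% and 74.3% of endothelial cells. The part of free RNA in these shares was not tested.

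Each member was more abundant in some cells than in others of the same class. In meningeal replicate 1, 49.6% of T cells had a UMI of any member, but 3.95% of cells (71) held 50% of all member UMIs. In replicate 2 these values were 36.0% and 4.53% (186 cells). High cells held 81.2% of member UMIs with 19.6% of all UMIs in replicate 1, and 57.0% with 8.73% in replicate 2. The share of UMIs in high cells is set in part by how these cells were chosen. In the endothelial class 11.7% of DTRneg and 11.9% of DTRpos cells held 50% of the UMIs. In mature oligodendrocytes 4 cells of 3777 and 3 of 2659 held 50%, and the richest 5 cells held 56.5% and 80.1%. The high cells of OPCs held 5.41% of their member UMIs in DTRneg and 31.2% in DTRpos.

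**Figure D2:**
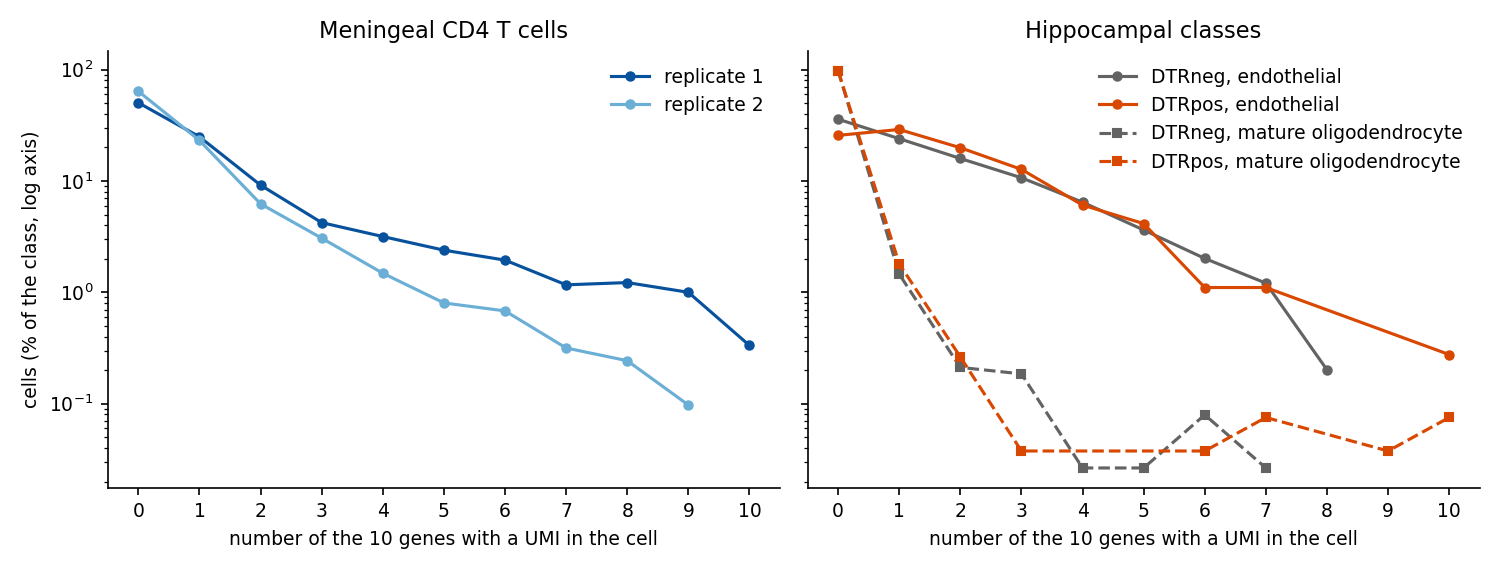
Percent of cells (log axis) by the number of the 10 genes with a UMI, in meningeal T cells (left) and 2 hippocampal classes (right); points without cells are left out. Endothelial cells fall off gradually, whereas in mature oligodendrocytes 97.99% of DTRneg cells have none and a few cells reach 5 or more.

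In T cells and endothelial cells the members often appeared together in the same cells. In replicate 1, 74.4% of T cells with an Ifit1 UMI held at least 2 other members, against 12.6% of cells without it. The values for Ifit3b were 88.6% and 20.4%, and for Isg15, the most abundant member, 50.1% and 8.92%. In replicate 2 they were 52.3% and 7.36% for Ifit1, 71.9% and 11.4% for Ifit3b, and 32.4% and 4.04% for Isg15. In DTRneg endothelial cells, Ifit1 gave 77.8% and 29.4%, and in DTRpos 81.5% and 36.4%. In mature oligodendrocytes, among members found in 10 or more cells of a library, between 17.9% and 66.7% of those cells held 2 others. Of the oligodendrocytes without the member, between 0.151% and 0.425% did. In OPCs and astrocytes the shares were between 0% and 25.0% with the member and between 0.426% and 2.37% without it. Of the astrocytes with a Cmpk2 UMI, 0 of 14 in DTRneg and 0 of 14 in DTRpos held 2 others, and of the DTRneg OPCs with one, 2 of 42 did. Ifit3 and Ifit3b share reads, so their joint presence is not independent.

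Single cells show how far the program went. The richest T cell of replicate 1, in the Th1 state, held 131 member UMIs of 3991 with all 10 members present, among them 43 of Isg15, 26 of Ifit1 and 19 of Rsad2. The richest of replicate 2 was also in the Th1 state and held 48 of 1451 with 8 members. The richest DTRpos cell was classed as endothelial and held 120 of 2518 with 10 members, 42 of them Rsad2, 25 Isg15 and 23 Cmpk2, but only 7 UMIs of endothelial markers and 0 of immune markers. In DTRpos, 3 mature oligodendrocytes held 95, 95 and 93 member UMIs with 10, 10 and 9 members. The richest DTRneg oligodendrocyte held 88 with 5 members, 55 of them Ifit3 and 18 Ifit3b, and no Isg15, Rsad2 or Cmpk2. Oligodendrocytes with 9 or 10 members were thus 3 cells, seen in DTRpos alone among these libraries, which hold 1 pool of mice per group. These 3 cells had 6844, 5824 and 26507 UMIs, against a class median of 6291. In DTRneg, 3 oligodendrocytes had 6 members and 1 had 7. At 3 or more members, the rule used elsewhere, DTRneg had 13 of 3777 and DTRpos 7 of 2659.

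Isg15 was the most abundant member in the 3 largest T-cell states and in the endothelial class. In the Th1 state Isg15 stood at 324 CPM in replicate 1 and 183 in replicate 2, in the Treg state at 259 and 178, and in the naive state at 134 and 119. Ifit1 stood at 174 and 73.9 CPM in the Th1 state, 75.8 and 49.9 in the Treg state, and 53.5 and 60.9 in the naive state. Ifit3 stood at 148 and 60.3, 61.8 and 38.9, and 28.8 and 27.1 CPM in the same order. The Th1 state was the highest for these 3 genes in both replicates, with the replicate 2 values closer together. Mx1 stood at 37.6 and 20.4 CPM in Th1, 15.7 and 5.92 in Treg, and 7.93 and 2.47 in naive cells. Rtp4 stood at 153 and 93.5, 86.5 and 86.3, and 55.5 and 66.6. Cmpk2 stood at 40.4 and 29.6, 16.5 and 14.4, and 12.9 and 25.5, so Treg cells were the lowest in replicate 2 only. The other members, Ifit3b, Rsad2, Usp18 and Oasl2, ranged from 6.94 to 50.03 CPM over states and replicates, and Oasl2 was highest in naive cells of replicate 2.

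**Figure D3:**
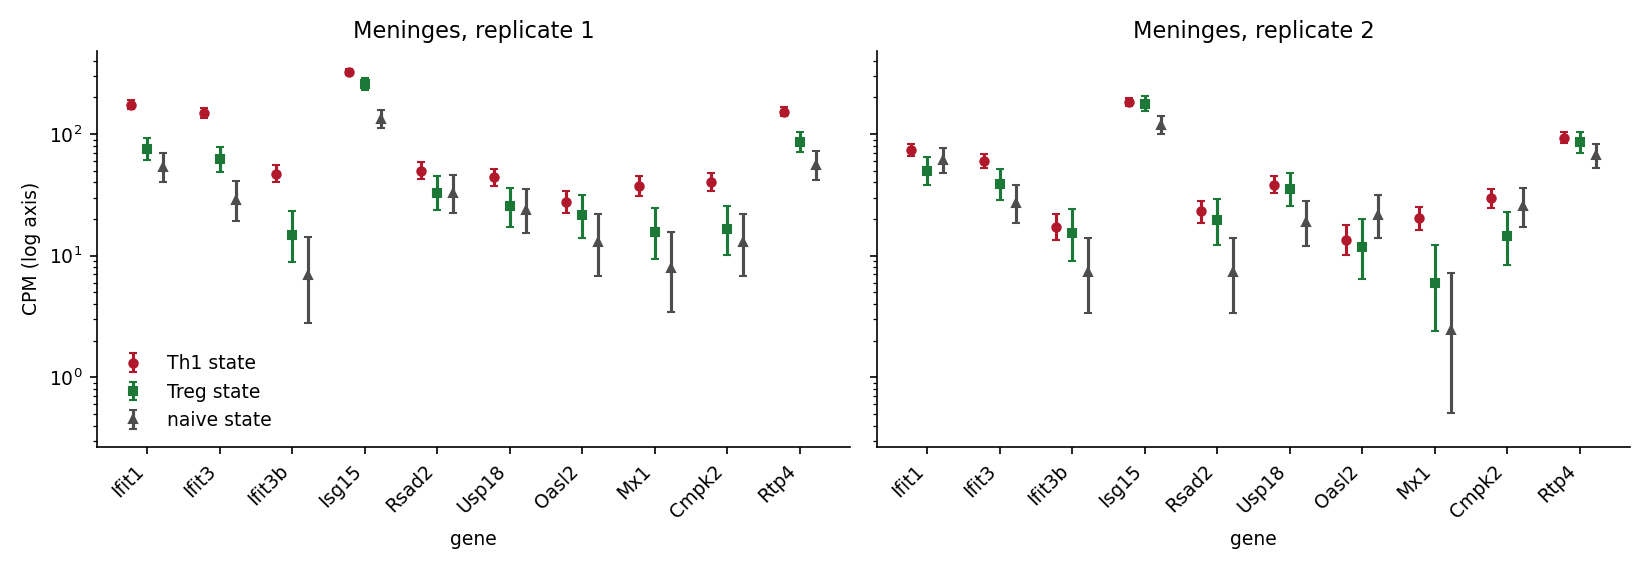
Level of each gene (CPM, log axis) in the Th1, Treg and naive states of meningeal replicates 1 (left) and 2 (right), with exact Poisson intervals at 95% confidence. In replicate 1 the Th1 state is highest for all 10 genes; in replicate 2 naive cells exceed Th1 cells for Oasl2.

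The states were compared on summed counts with edgeR's quasi-likelihood test and Benjamini-Hochberg adjustment over 9261 genes, with 2 replicates per state. Without a term for the replicate 0.0% of genes passed an adjusted p of 0.05 in any of the 3 contrasts. The lowest adjusted p of a member in edgeR's quasi-likelihood test was then 0.509 for Treg minus Th1, 0.478 for naive minus Th1 and 0.872 for Treg minus naive. The unadjusted p was under 0.05 for 638, 679 and 727 genes of all kinds, and DESeq2 called 126, 127 and 138 genes, none of them members. Each state was taken from the same libraries, so the replicate number was also fitted as a block, and the calls below are from that fit.

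With the block, all 10 members were lower in the Treg than in the Th1 state, and 5 fell past the threshold, where 3.85% of genes did. Ifit3 was lower by a log2 difference of -1.04 (SE 0.19, adjusted p 0.00192, edgeR's quasi-likelihood test with Benjamini-Hochberg adjustment). Mx1 was at -1.48 (SE 0.28, adjusted p 0.00257 in the same edgeR test), and Ifit1 at -0.97 (SE 0.21, adjusted p 0.00755 in the same edgeR test). Cmpk2 and Ifit3b also fell, by 1.22 and 1.09 on the log2 scale. The median over the 10 members was -0.75, against 0.00 over all genes. The median was -1.01 in replicate 1 alone and -0.22 in replicate 2 alone. With a Foxp3 UMI as the Treg rule 2 members fell, Ifit3 and Mx1, and 2 fell among cells with at least 1000 genes.

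Naive cells were also lower for all 10 members, and 7 fell past the threshold with the block, where 4.79% of genes did. Ifit3 was at -1.66 (SE 0.22, adjusted p 1.21e-04, edgeR's quasi-likelihood test with Benjamini-Hochberg adjustment) and Mx1 at -2.36 (SE 0.35, adjusted p 3.29e-04 in the same edgeR test). Ifit3b, Ifit1, Rtp4, Usp18 and Isg15 fell by 1.92, 0.86, 0.83, 0.83 and 0.82 on the log2 scale. Rsad2 at -0.77, Cmpk2 at -0.68 and Oasl2 at -0.03 did not pass. The median was -0.83, with -1.55 in replicate 1 alone and -0.82 in replicate 2 alone. Among cells with at least 1000 genes 4 members fell. Between Treg and naive cells Isg15 alone passed, at 0.58 higher in Treg (adjusted p 0.0185 in edgeR's quasi-likelihood test, Benjamini-Hochberg adjusted), where 4.09% of genes were higher past the threshold. No member passed for Treg minus naive at a hashtag margin of 20 with the block, where the lowest adjusted p in edgeR's quasi-likelihood test was 0.241, or in thinned cells with the block, where it was 0.345.

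The Th1 rule uses Ccl5, itself a gene that interferon can induce. Without Ccl5 in the rule and with the block, 4 members fell in Treg and 6 in naive cells relative to Th1 cells. Oasl2 turned to higher in Treg and in naive than in Th1 cells once cells were thinned to 1000 UMIs, and in naive cells also without Ccl5. The 3 contrasts share sums, so they are not independent of each other.

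High T cells also carried many other interferon-stimulated genes. Cells with 3 or more members were compared with cells that had none, over 9974 genes, in the 2 replicates. Of 32 other interferon-stimulated genes, 31 could be tested and all 31 were higher in high cells in both replicates, with a median log2 difference of 2.12 against 0.00 over all genes. Without the block 0.0% of genes passed an adjusted p of 0.05 in edgeR's quasi-likelihood test with Benjamini-Hochberg adjustment, with 250 genes at an unadjusted p under 0.05, and DESeq2 called 64 genes, 0.477% of the 13419 it tested, among them 27 of the 31. With the block all 31 rose past the threshold, where 4.19% of all genes did, with a median of 2.15. The cells were split on interferon-stimulated genes, and the lists were chosen with earlier results of these data known. A rise was thus likely beforehand, and the p-values are not independent evidence of it. The same holds for the signalling and interferon-gamma lists below. High cells were chosen by UMIs of the members, which favours deep cells, and their median depths were 3607.5 and 2335 UMIs against 2832 and 1669 in cells with none. With cells thinned to 1000 UMIs and with the block, 29 could be tested and 29 rose.

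Among these genes, Ifi44 stood at 32.3 CPM in high against 1.05 in zero cells of replicate 1 and at 16.9 against 0.587 in replicate 2. Ifitm3, which blocks virus entry, stood at 532 against 39.7 and 130 against 17.6 CPM. Bst2 (tetherin), which holds budding virions to the cell, stood at 578 against 136 and 587 against 146 CPM. Isg20, an RNA exonuclease, stood at 290 against 60.1 and 350 against 65.5, and Zbp1, a sensor of Z-form nucleic acids, at 303 against 73.4 and 435 against 88.2. Every one of these was several-fold higher in both replicates. Mx2, the relative of Mx1, stood at 24.2 against 1.76 and 18.2 against 1.37 CPM. Ifi27l2a was already abundant in zero cells, at 1074 and 1273 CPM, and stood at 3098 and 3369 in high cells.

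With the block, 5 of 10 signalling genes rose, where 4.19% of all genes did, among them Irf7 by 2.49, Stat2 by 1.81, Irf9 by 1.30 and Socs1 by 0.46 on the log2 scale. Stat2 and Irf9 act together in driving the members, Irf7 amplifies interferon production, and Socs1 is an inhibitor of the kinases. Irf7 reached 363 CPM in high cells of replicate 1, where zero cells had 59.7, and 390 against 77.5 in replicate 2. The log2 differences were -0.06 for Ifnar1, 0.16 for Ifnar2, 0.01 for Jak1, 0.18 for Tyk2 and -0.17 for Irf3, none of which passed. A p that misses the threshold does not show that these were equal.

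Of 12 genes known chiefly as interferon-gamma targets, 10 could be tested and 9 rose with the block, where 4.19% of all genes did, with a median of 1.33. Without the block 0 of the 10 passed in edgeR's quasi-likelihood test, and DESeq2 called 3 of the 11 it tested. Iigp1 and Igtp, GTPases that attack vacuoles of parasites, rose by 2.80 and 1.46, and Gbp2 by 1.44. H2-Aa, a class II antigen-presenting chain, stood at -0.04 and did not pass. Ifng itself had 98.4 CPM in high and 117 in zero cells of replicate 1, and 128 and 117 in replicate 2, with opposite directions in the replicates. No UMI of Ifnb1, Ifna1 or Ifna4 was found in the cells of the 4 libraries kept after filters and hashtag assignment. In these cells Ifng had 611 and 986 UMIs in the meningeal replicates and 6 and 0 in DTRneg and DTRpos.

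**Figure D4:**
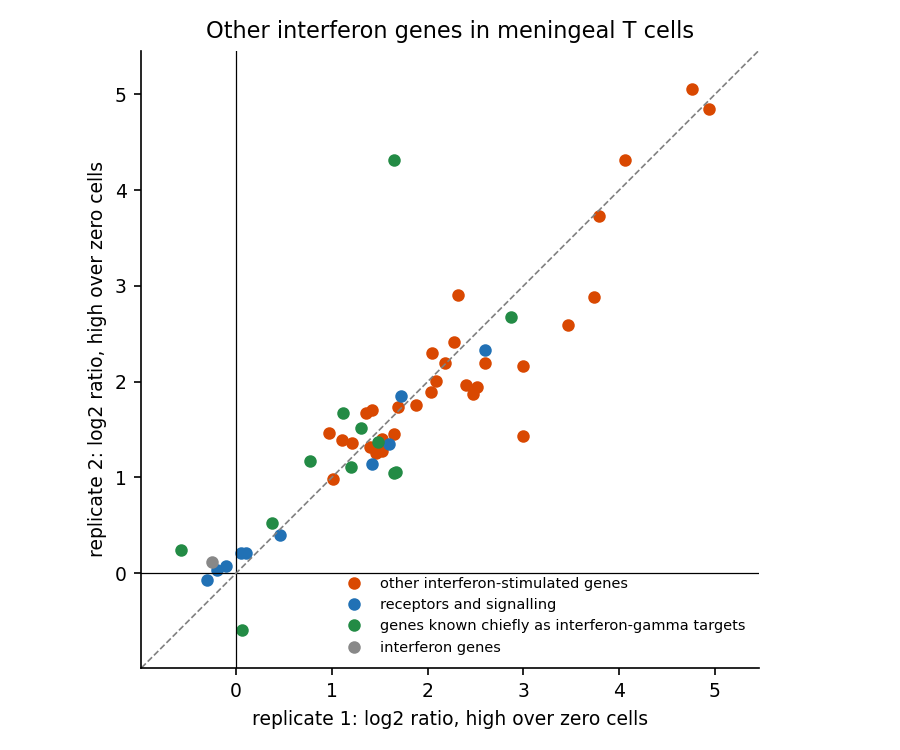
Log2 ratio of high over zero cells in meningeal replicate 1 (horizontal) against replicate 2 (vertical), 1 point per gene with a UMI in every sum, coloured by gene list; the dashed line marks equal ratios. All plotted other interferon-stimulated genes lie above 0 in both replicates, while Ifnar1, Jak1 and Ifng lie near 0.

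Genes with 30 or more UMIs and higher in high cells of both replicates were ranked by fold without the block. The first 15 were Hba-a1, Hba-a2, Hbb-bs, Fabp4, Ifi44, Ifi204, Gm47242, Mx2, Tgfbi, Col6a1, Ifitm3, Hspb1, Ccl6, Ifitm1 and Cavin3. Haemoglobin genes led through very few cells, since 319 of 322 haemoglobin UMIs in high cells of replicate 1 came from 1 cell and 227 of 592 in replicate 2. Fabp4, Tgfbi, Col6a1, Hspb1, Ccl6 and Cavin3 are known from vessel, stromal or myeloid cells. Each of them, and Ifitm1, had 1 to 5 UMIs in the high cells of replicate 2. The ranking thus rested on few cells or on replicate 1 for most genes outside the interferon group. Myeloid markers summed to 406 CPM in high and 194 in zero cells of replicate 1, and to 320 and 196 in replicate 2. Markers of plasmacytoid dendritic cells stood at 51.4 against 20.7 and 9.11 against 15.3, and markers of B cells at 4.41 against 7.03 and 9.11 against 9.58. T-cell markers stood at 3699 against 4444 and 4469 against 4540 CPM, and the part of other cells in the result was not tested.

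High T cells carried many different T-cell receptors. Among cells with exactly 1 productive TRB chain, 22.6% of high cells in replicate 1 shared it with another cell (208 cells, 17.1 to 28.9%), against 18.4% of zero cells (728 cells, 15.7 to 21.4%). In replicate 2 the shares were 13.9% (165 cells, 9.05 to 20.2%) and 15.4% (1634 cells). Within the Th1 state they were 28.1% against 29.1% and 19.4% against 18.6%. All these intervals overlapped within a replicate. The 208 and 165 high cells held 193 and 159 clonotypes. Of 87 and 138 clonotypes with 2 or more cells, 55 and 121 held no high cell, 30 and 15 were mixed, and 2 and 2 consisted of high cells alone. The counts to be expected from the share of high cells were not worked out.

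In the hippocampus the members were most abundant in endothelial cells. Summed over the 10 members, the endothelial class stood at 1468 CPM in DTRneg and 1920 in DTRpos, against 7.79 and 19.7 in mature oligodendrocytes, 32.9 and 43.6 in astrocytes, 39.9 and 61.6 in OPCs and 148 and 94.9 in pericytes. For comparison the T cells stood at 791 and 459 CPM in replicates 1 and 2, but the tissues were prepared separately and no test was made between them. Within the endothelial class Isg15 was highest at 740 and 950 CPM, followed in DTRneg by Rtp4 at 166, Ifit1 at 116 and Ifit3 at 104. No UMI of Mx1 was detected in the 496 DTRneg endothelial cells, which allows a level of up to 2.96 CPM (3 counts of the total), and DTRpos stood at 4.53 CPM (0.935 to 13.2, 3 UMIs). In the meningeal replicates Mx1 was found in 6.12% and 2.31% of T cells.

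Endothelial high cells also carried other interferon-stimulated genes. Of the other interferon-stimulated genes, 13 had 20 or more UMIs in each library, all 13 were higher in high than in zero cells of both libraries, and 6 were past 2-fold in both. The median ratios were 2.25 in DTRneg and 2.01 in DTRpos, against 0.994 and 1.003 over all genes. Over all 2938 genes with that many UMIs, members left out, 0.953% were past 2-fold in both libraries and 25.7% were higher in both. These high cells were chosen by the members in the same cells, so the values are given with no test. Of 7 signalling genes with enough UMIs, 4 were higher in both, among them Stat2, Irf9 and Irf7. All 8 interferon-gamma targets with enough UMIs were higher, 6 past 2-fold, with medians of 4.06 and 2.75. Irf7 stood at 273 against 40.8 CPM and 305 against 111, and Iigp1 at 397 against 72.1 and 556 against 201. The 15 genes with the largest smaller ratio over the 2 libraries included Irgm1, Ifit2, Gbp5, Xaf1, Lgals9, Slfn2, Irgm2, Iigp1, Irf7, Gbp7, Tap1, Gbp2, Ifi47 and Ifi44. Endothelial markers stood at 13840 against 13750 CPM and 15000 against 16000, and immune markers at 30.8 against 25.1 and 19.7 against 27.7. Median depth was 2311 against 1538.5 UMIs in DTRneg and 2010 against 1432 in DTRpos.

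Between DTRneg and DTRpos, the question is what toxin treatment of mice with the receptor did to hippocampal cells. With 1 library per group no test was possible, and all differences compare 2 libraries. In the endothelial class the summed level was 0.39 higher in DTRpos on the log2 scale (0.28 to 0.50, an interval for counting error that leaves out the spread between cells and animals). It was 0.28 without the richest cell of each library, and 0.11 among cells with at least 1000 genes.

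Rsad2 differed most, from 96.6 CPM in DTRneg to 228 in DTRpos, a log2 ratio of 1.24 (0.86 to 1.62). The richest DTRpos cell gave 42 of its 151 UMIs, and without the richest cells the ratio was 0.84. Of the 9 members at 20 CPM or more in either library, Rsad2 was the 1 past 2-fold, where 2.31% of 6412 such genes were. Without the 5 richest cells no member was. Ifit3 went from 104 to 171 CPM (0.72, 0.33 to 1.12) and Isg15 from 740 to 950 (0.36, 0.21 to 0.52). Cmpk2 went from 49.3 to 75.5 (0.62), but to -0.24 without the richest cell of each library, so its direction rested on 1 cell. Oasl2 stood at 0.28, Ifit3b at 0.26, Usp18 at 0.02, Rtp4 at -0.08 and Ifit1 at -0.12, all with intervals that include 0. Mx1 had 3 UMIs in DTRpos, all in that richest cell. The median over the 9 was 0.28, against 0.03 over all genes.

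**Figure D5:**
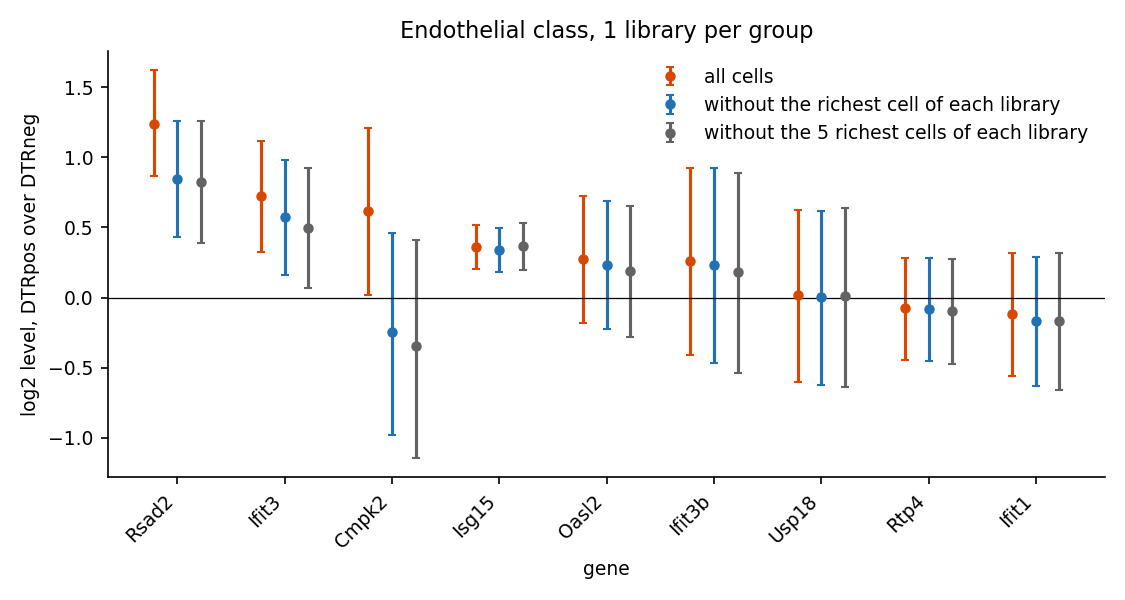
Log2 ratio of DTRpos over DTRneg for 9 genes in the endothelial class, with all cells and without the 1 or 5 richest cells of each library; bars are intervals at 95% confidence for counting error alone. Rsad2, Ifit3 and Isg15 stay above 0 in all 3 settings, and Cmpk2 crosses 0 when 1 cell is left out.

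Genes were counted here if they reached 20 CPM in either library, so a gene could enter through DTRpos alone. Of the other interferon-stimulated genes, 18 of 32 reached 20 CPM in endothelial cells, 13 were above 0 and the median was 0.12. The receptor and signalling genes had a median of -0.07 (4 of 9 above 0). Ifit2 went from 29.6 to 77.0 CPM and Zbp1 from 28.6 to 63.4, whereas Herc6, a ligase that attaches Isg15, went from 36.5 to 18.1. Of the interferon-gamma targets that reached 20 CPM in either library, 10 of 10 were above 0, where 53.9% of all such genes were. Of these targets 3 were past 2-fold, with a median of 0.80. Without the 5 cells of each library richest in the members, 10 of 10 were above 0 and 2 past 2-fold, with a median of 0.84. Gbp5 went from 96.6 to 198 CPM, Gbp2 from 112 to 218 and Gbp7 from 198 to 360. Cxcl9, a chemokine, had 0 UMIs in DTRneg and 56 in DTRpos endothelial cells, 38 of them in 1 cell and the rest in 1 other cell. Cxcl9 was 1 of the 10 and 1 of the 3 past 2-fold. It entered through DTRpos alone, so it could only count as above 0, and its ratio rested on 2 cells. Irf7 went from 137 to 222 CPM. The genes were not tested as a set.

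In mature oligodendrocytes, OPCs and astrocytes no member reached 20 CPM, and in pericytes Isg15 did, with 110 CPM in DTRneg (43 UMIs) and 79.7 in DTRpos (21 UMIs). In mature oligodendrocytes the summed ratio was 1.34 (1.12 to 1.56), and 0.21 (-0.20 to 0.62) without the 5 richest cells of each library. Mx1 had 0 and 21 UMIs in DTRneg and DTRpos oligodendrocytes, Rsad2 15 and 68, Isg15 39 and 90, Cmpk2 10 and 33, and Oasl2 10 and 29. Most of the difference thus lay in the 5 richest cells of each library. In OPCs the summed ratio was 0.63 (0.32 to 0.93) and 0.49 without the 5 richest cells, with Ifit3 at 30 and 69 UMIs, Rtp4 at 16 and 36, Usp18 at 0 and 9, and Cmpk2 at 43 and 46. In astrocytes it was 0.41 (0.07 to 0.74) and 0.039 without the 5 richest cells. In pericytes it was -0.64 (-1.38 to 0.06), the 1 class of these 5 that was lower in DTRpos.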

How the data were processed

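Raw counts of UMIs per gene and barcode were deposited, made with Cell Ranger 4.0.0 (meningeal replicate 1), 6.0.0 (replicate 2) and 6.1.0 (hippocampus), per the file headers. The submitters' processing notes name mm10 and Seurat. The labels' protocols and the series' design differ on whether the T-cell kit reads 3′ or 5′ ends. Cells needed 500 detected genes and at most 10.0% (meninges) or 15.0% (hippocampus) mitochondrial counts. Meningeal cells were assigned to a sample by hashtag counts, at least 10 and at least 2 times the next. In the label of replicate 1 the hashtag sequence is not the one the table gives for that hashtag number, and the number was used. Scrublet removed 242 and 158 hippocampal doublets, and no caller was run on the meninges. A T-cell state needed at least 2 distinct markers detected and more of them than any other state. A hippocampal class needed 3 distinct markers and at least 2 times the marker UMIs of the next class. The members and the gene lists were chosen with earlier results of these data known; 2 signalling symbols were not in the tables. Sums per replicate were tested with edgeR 4.0.16 (R 4.3.3), with DESeq2 1.42.0 as an alternative. Without the block, p-values measure only the spread between 2 libraries. With the block, they measure only how far the difference within each library varied between the 2 libraries. Same-numbered sums come from the same animals, and their deviations correlated (r 0.795 for high and zero, 0.797 to 0.847 for states). On simulated data of 9974 genes, the high against zero fit without the block recovered 0 of 100 genes at 2-fold and 0 of 100 at 4-fold. With the block it recovered 60 and 93. The counts were drawn from each replicate's own means, with 1 spread for all genes estimated with the block. That setting suits the fit with the block, so these numbers do not show how well it works on the real counts. Named genes of the meninges were the first 15 by fold without the block, with 30 UMIs and higher in both replicates. Those of the hippocampus were the first 10 by the smaller ratio of the libraries, with 20 UMIs. The first 15 in endothelial cells were added after the data were seen. Promoters are RefSeq's (GRCm38.p6). Results of 1 gene of the lists are not reported here.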

Additional observations from a re-analysis of the deposited data

How the results depend on the processing

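The share of cells with 3 or more members depends on the number asked for and on depth. With 2 or more it was 24.6% and 12.9% in meningeal replicates 1 and 2 and 3.93% and 4.09% in DTRneg and DTRpos, and with 4 or more 11.2%, 3.63%, 1.15% and 1.16%. Thinned cells gave 6.67%, 3.16%, 1.14% and 0.941%. Cells with at least 1000 genes gave 9.37% in replicate 2, 1.86% in DTRneg and 1.58% in DTRpos. Hashtag margins of 5 and 20 gave 5.72% and 5.57% in replicate 2. Thinned, the Th1, Treg and naive states stood at 9.45%, 4.07% and 2.04% in replicate 1 and 4.15%, 2.27% and 2.24% in replicate 2, and a hashtag margin of 20 gave 3.29% and 3.25% for Treg and naive cells of replicate 2. Thinned DTRneg mature oligodendrocytes stood at 0.0539%, DTRneg OPCs at 0% thinned and 0% with a stricter class margin, and DTRpos OPCs at 0.247% with that margin. The causes were not tested, beyond the fewer UMIs that thinning leaves.

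The endothelial log2 ratio of DTRpos over DTRneg was 0.28 without the 5 richest cells, 0.11 with at least 1000 genes and 0.25 with the stricter class margin. Cmpk2 turned to -0.35 without the 5 richest cells, -0.24 without the richest and -0.27 with the stricter margin. The interferon-gamma targets, 3 of 10 past 2-fold with all cells, were 2 without the 5 richest, a count chosen after seeing the data. Mature oligodendrocytes went to 0.21 without the 5 richest cells and 1.02 with doublets kept, and astrocytes to 0.039 without the 5 richest.

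Genes past an adjusted p of 0.05 numbered 0 without the replicate block in each contrast. For high minus zero cells, Treg minus Th1, naive minus Th1 and Treg minus naive, in that order, the replicate block gave 445, 893, 974 and 769, no filter on low counts 192, 335, 361 and 303, and DESeq2 64, 126, 127 and 138. A hashtag margin of 20 gave 16, 5, 2 and 11, and with the block 417, 775, 954 and 766. Thinned cells gave 46, 30, 19 and 6, and with the block 156, 503, 629 and 477. At least 1000 genes with the block gave 356, 687, 651 and 568. Without Ccl5 in the Th1 rule and with the block, the 3 state contrasts gave 845, 919 and 753. A Foxp3 UMI as the Treg rule gave 622, 923 and 739 with the block, and 2 for naive minus Th1 without it. The alternatives that join the block with another choice, those on Ccl5, Foxp3 and 1000 genes in the fits, and the one without the single richest cell were chosen after seeing the data.

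Of the 10 members, 0 passed in each state contrast without the block. With the block 5 passed for Treg minus Th1, 7 for naive minus Th1 and 1 for Treg minus naive. In the same order, Ccl5 left out gave 4, 6 and 1, a Foxp3 UMI 2, 7 and 3, and at least 1000 genes 2, 4 and 1, all with the block. A hashtag margin of 20 with the block gave 6, 8 and 0, thinned cells with the block 4, 5 and 0, and no filter without the block 2, 6 and 0. The median of the 10 ranged over the replicates left out from -1.01 to -0.22 for Treg minus Th1, from -1.55 to -0.82 for naive minus Th1 and from 0.55 to 0.69 for Treg minus naive. For Treg minus naive it was 0.22 without Ccl5, 0.21 with at least 1000 genes and the block, and 0.47 thinned.

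For Treg minus Th1, Isg15 turned to 0.050 with a Foxp3 UMI and Oasl2 to 0.058 thinned and 0.10 thinned with the block. For naive minus Th1, Oasl2 turned to 0.076 thinned, 0.27 thinned with the block and 0.10 without Ccl5 with the block. For high minus zero cells, Ifnar1 turned to 0.073 and, with the block, 0.057 among cells with at least 1000 genes, and Jak1 to -0.089 with no filter and -0.0021 thinned. H2-Aa turned to 1.45e-05 in DESeq2, 1.35 and, with the block, 1.26 at a hashtag margin of 20, 0.34 and 0.37 thinned, and 0.11 and 0.12 with at least 1000 genes. Ifng turned to 0.65 thinned and 0.66 thinned with the block. None of these genes passed the threshold without the block, and the causes were not tested.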

Other observations

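Among the few meningeal cells classed as other than CD4 T cells, those with 3 or more members were 7 of 23 myeloid cells in replicate 1 and 5 of 30 in replicate 2, 3 of 5 and 1 of 4 plasmacytoid dendritic cells, and 1 of 8 and 3 of 36 B cells. Over all hippocampal cells, the 10 genes with the largest smaller ratio of high over zero cells were Irf7, Gm12250, Iigp1, Ifi47, Gbp4, Gbp5, Trim30a, Lgals9, Ifi44 and Tnfsf10. That ranking mainly sets endothelial cells, which hold 120 of 151 and 92 of 119 high cells, against the other classes.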
